A study of Mus musculus with 12 samples.

Results

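A set of 9 fibroblast state genes from 3 families was followed: S100a4, S100a6, S100a10, S100a11 and S100a13 of the S100 family, Ly6a and Ly6c1 of the Ly6 family, and Crip1 and Crip2 of the CRIP family. They were chosen by name from the 24279 genes of the deposited table, and all 9 were among the 15186 genes that passed the filter on low counts. S100a4 and Ly6a were singled out for their difference between genotypes and Crip1 for its difference between folic acid levels in these same libraries, so those values are given as a description without a test. The libraries were made from polyadenylated RNA of fibroblasts that were cultured from mouse embryos taken at day 12.5 of gestation. Mutant cells were homozygous for a change in Rsg1 named L3P (Rsg1L3P/L3P) and were set against wild type cells; Rsg1 encodes a small GTPase-like protein needed to build primary cilia. Fortified cells came from F3 mice on a diet with 10 ppm folic acid and were cultured with 3600 ng/mL, while moderate cells came from mice on 2 ppm and were cultured with 225 ng/mL. The 4 groups were fortified mutant, fortified wild type, moderate mutant and moderate wild type, each with 3 libraries. Diet and medium changed together, so their parts cannot be told apart. The labels do not say whether each library stands for an embryo of its own, and the p-values therefore measure only the spread between these libraries.

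S100 proteins are small calcium-binding proteins that change shape when calcium rises and then bind partners such as annexins and myosin; several are also released from cells. Ly6 proteins are held on the cell surface by a lipid anchor, and Ly6a, known as Sca-1, marks progenitor populations of the mouse, including fibroblast progenitors, and can be induced by interferon. CRIP proteins are small proteins built around LIM domains, zinc-binding folds that mediate contacts between proteins. S100a4, also called fibroblast-specific protein, is used as a fibroblast marker and is present in macrophages as well.

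The 5 S100 genes lie on chromosome 3 of mm10, in 2 blocks of one family cluster. S100a13 (ENSMUSG00000042312.9, 90514435 to 90524581), S100a4 (ENSMUSG00000001020.8, 90603771 to 90606045) and S100a6 (ENSMUSG00000001025.8, 90612882 to 90624181) are in the first block. S100a11 (ENSMUSG00000027907.4, 93520488 to 93526287) and S100a10 (ENSMUSG00000041959.14, 93555080 to 93564643) are in the second block. A gap of 2825 kb that holds 60 other protein-coding genes lies between S100a9, at the end of the first block, and S100a11. Crip2 (ENSMUSG00000006356.10, 113140236 to 113145506) and Crip1 (ENSMUSG00000006360.11, 113146316 to 113153879) are neighbours on chromosome 12, separated by 809 bases, and all of these genes are on the plus strand. Ly6a (ENSMUSG00000075602.10, 74994877 to 74998031) and Ly6c1 (ENSMUSG00000079018.10, 75044018 to 75048830) are on the minus strand of chromosome 15. In the annotation S100a4 shares 2115 bases with Gm42674, a protein-coding gene model on the same strand, so reads there can be split between them.

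RefSeq's promoter table, build GRCm38.p6, held 7 of the 9 genes, all except S100a10 and Ly6a. The 250 bases before the start are shown for S100a4, the gene with the largest difference between genotypes, for Crip1, the one with the largest difference between folic acid levels, and for S100a11, the gene with the highest level per transcript length. The stretch between S100a1 and S100a13 is shown because the genes on its opposite sides both had higher levels at fortified folic acid. All are written 5′ to 3′ on the plus strand, and capitals mark the motifs found.
S100a4, chr3:90603520-90603769: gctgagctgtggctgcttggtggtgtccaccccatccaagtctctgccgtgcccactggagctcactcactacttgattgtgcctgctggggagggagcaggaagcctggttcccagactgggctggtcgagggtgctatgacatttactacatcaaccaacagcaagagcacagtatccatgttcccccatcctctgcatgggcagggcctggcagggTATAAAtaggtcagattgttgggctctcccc
Crip1, chr12:113151762-113152011: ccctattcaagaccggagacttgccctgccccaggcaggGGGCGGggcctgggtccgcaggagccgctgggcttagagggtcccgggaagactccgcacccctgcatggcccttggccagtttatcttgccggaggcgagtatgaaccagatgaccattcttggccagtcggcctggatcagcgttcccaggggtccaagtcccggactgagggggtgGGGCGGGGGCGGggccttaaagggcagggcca
S100a11, chr3:93520246-93520495: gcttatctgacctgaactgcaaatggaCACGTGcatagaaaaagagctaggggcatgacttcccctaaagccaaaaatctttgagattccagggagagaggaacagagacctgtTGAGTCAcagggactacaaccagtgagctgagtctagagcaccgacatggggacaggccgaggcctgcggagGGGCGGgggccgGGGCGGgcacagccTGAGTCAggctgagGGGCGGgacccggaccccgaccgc
S100a1 to S100a13, chr3:90514393-90514434: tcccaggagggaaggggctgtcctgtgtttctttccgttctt

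The motifs searched on both strands were TATAAA (the TATA box), GGGCGG (the GC box), TGANTCA (the AP-1 site), TTCNNNGAA (the STAT site), CACGTG (the E-box) and the interferon-stimulated response element by its core. S100a4 had TATAAA from 31 to 26 bases before its start, a motif present in 12.4% of 32851 promoters of the same length. Crip1 had 3 copies of GGGCGG, present in 32.7% of promoters, 2 of them side by side between 32 and 21 bases before the start, and its window lies inside the longer annotated Crip1 gene. S100a11 had 3 copies of GGGCGG, 2 of TGANTCA (6.75% of promoters) and 1 of CACGTG (6.02%). The interferon-stimulated response element (2.98% of promoters) and TTCNNNGAA (7.02%) matched in 0 of the 7 genes. The S100a4 window held 2 CG pairs, that of S100a11 held 11 and that of Crip1 held 13, beside a median of 6 over all promoters. These matches describe the letters of the windows only.

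Levels were compared between genes as TPM, the share of transcripts scaled to 1000000 per library, which divides by transcript length. S100a11 had the highest mean over the 12 libraries, 1854 TPM, and was number 84 in the whole table. S100a6 followed with 1546 TPM and S100a10 with 835 TPM, while S100a4 had a mean of 314 TPM. The CRIP genes came next, Crip1 with 116 TPM and Crip2 with 79.5 TPM, followed by S100a13 with 29.5 TPM, Ly6a with 14.9 TPM and Ly6c1 with 5.29 TPM. Together the 9 genes took between 0.230% of all TPM in moderate mutant 2 and 1.02% in fortified wild type 2.

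Each library held 39339131 to 48475920 counts. Of the 12 libraries 3 stood apart on the first principal component, which held 30.2% of the variance: fortified mutant 2 at 48.1, fortified mutant 3 at 57.5 and moderate wild type 1 at 68.0, with the others between -68.6 and 4.74. Rsg1 had 31 to 38 counts in fortified mutant and 32 to 47 in fortified wild type libraries, and 32 to 54 in moderate mutant and 19 to 42 in moderate wild type libraries; counts per gene do not check a change of this kind. All 6 mutant libraries carried Xist, while among wild type libraries 2 did, 3 carried Y-linked transcripts and 1 carried neither. Sex was thus unequal between genotypes, and the parts of sex and genotype cannot be fully told apart. The wild type libraries numbered 2 had few Xist counts, 9 in fortified and 2 in moderate. Moderate wild type 2 carried 7061 Y-linked counts, while fortified wild type 2 carried 0 and is the library with neither. All 12 fibroblast markers were above 0 in every library, with vimentin (Vim) at a mean of 3677 TPM. Skeletal muscle, neuron and macrophage transcripts were present beside them. The RNA comes from mixed cultures, so fewer cells of a type and less RNA per cell cannot be told apart.

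**Figure D1:**
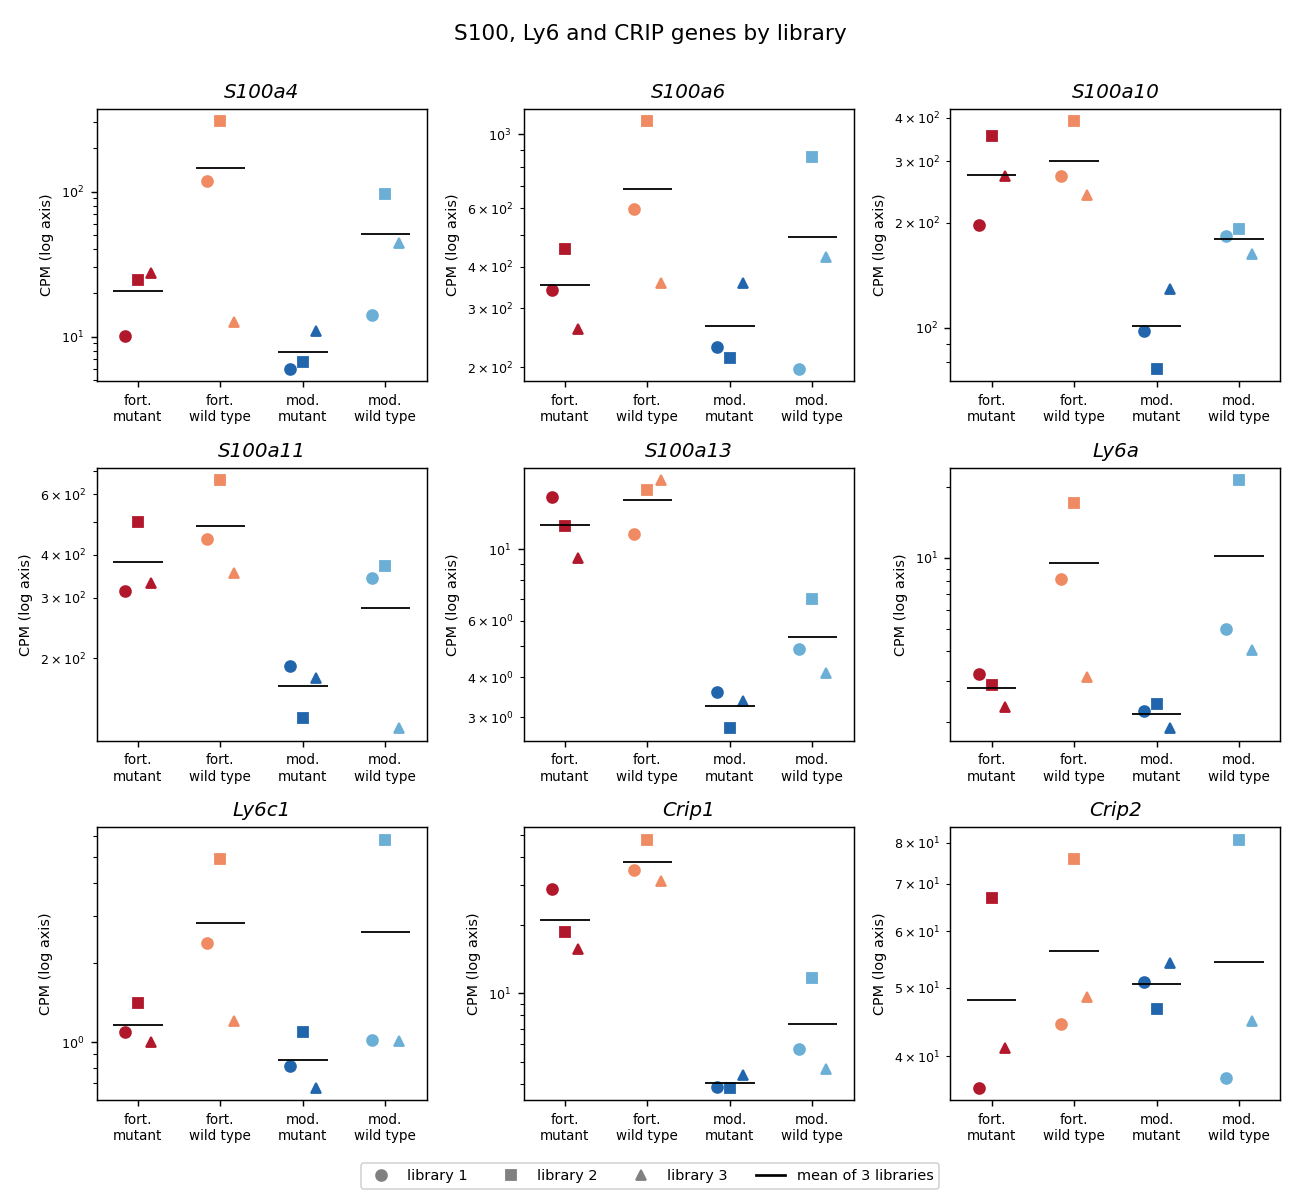
Normalised counts (CPM, counts per 1000000, log axis) of the 9 genes in the 12 libraries, by group; the point's shape gives the library number and the line the mean of 3 libraries. Crip1, S100a10 and S100a13 lie higher in every fortified library than in every moderate library, while S100a4, Ly6a and Ly6c1 are spread widely among wild type libraries.

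The first question was how the genes differed between mutant and wild type cells. All 9 had lower fitted levels in mutant cells at both folic acid levels. A negative log2 fold change was found for 49.0% of all tested genes at fortified and for 56.4% at moderate folic acid. The median log2 fold change of the 9 genes was -0.85 at fortified and -0.87 at moderate folic acid, beside 0.01 and -0.05 over all tested genes. All 9 have short transcripts, and among the 2923 shortest genes the median was 0.06 at fortified and -0.22 at moderate folic acid. Of these genes 0 passed an adjusted p of 0.05 by edgeR's quasi-likelihood test in either comparison, nor did any gene of the table (0% called in both). DESeq2 called 6 genes of the table at fortified and 50 at moderate folic acid, 0 of the 9 among them. At an unadjusted p under 0.05, 3 of the 9 were lower in mutant cells at fortified folic acid, beside 2.03% of all genes, and 6 of the 9 at moderate folic acid, beside 5.14%; S100a4 and Ly6a, chosen on this contrast, are counted in both, and nothing is read from their part. Every mutant library lay below every wild type library for 1 of the 9 at fortified folic acid (5.62% of all genes) and for 5 of the 9 at moderate folic acid (6.68%). S100a4 and Ly6a are among these 5 and in the directions and medians above, and nothing is read from their part there.

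S100a4, whose protein binds non-muscle myosin and promotes cell movement, had 10.1, 24.7 and 27.3 normalised counts per 1000000 (CPM) in fortified mutant libraries, against 118, 305 and 12.7 CPM in fortified wild type libraries. At moderate folic acid it had 5.97, 6.71 and 10.9 CPM in mutant libraries, against 14.02, 95.9 and 44.2 CPM in wild type libraries. Every mutant library was below every wild type library at moderate folic acid, whereas at fortified folic acid the groups overlapped, because fortified wild type 3 lay among the mutant libraries. Group means were 20.7 ± 9.27 CPM in fortified mutant and 145 ± 148 CPM in fortified wild type cells (SD, n = 3 each). They were 7.85 ± 2.63 CPM in moderate mutant and 51.4 ± 41.4 CPM in moderate wild type cells (SD, n = 3 each). Among wild type cells the SD was thus near the mean or above it. The log2 fold change, mutant over wild type, was -2.81 (SE 0.92) at fortified folic acid and -2.71 (SE 0.93) at moderate folic acid. Between the highest and the lowest of the 12 libraries S100a4 differed 51.1-fold, and its fitted variation between replicates was above that of 96.3% of tested genes.

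Ly6a had 3.21, 2.87 and 2.32 CPM in fortified mutant libraries, against 8.14, 17.2 and 3.10 CPM in fortified wild type libraries. The same gene had 2.23, 2.39 and 1.88 CPM in moderate mutant libraries, against 5.00, 21.4 and 4.06 CPM in moderate wild type libraries. As with S100a4, the groups did not overlap at moderate folic acid, and fortified wild type 3 lay within the mutant range at fortified folic acid. Its log2 fold change was -1.76 (SE 0.67) at fortified and -2.23 (SE 0.68) at moderate folic acid. Mutant libraries of Ly6a were close together, with means of 2.80 ± 0.445 CPM in fortified and 2.17 ± 0.264 CPM in moderate mutant cells (SD, n = 3 each).

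Ly6c1, a surface antigen best known from monocytes and endothelial cells, had 1.10, 1.40 and 1.00 CPM in fortified mutant libraries, against 2.38, 4.90 and 1.20 CPM in fortified wild type libraries. At moderate folic acid it had 0.81, 1.10 and 0.68 CPM in mutant libraries, against 1.02, 5.81 and 1.01 CPM in wild type libraries. The groups overlapped at both levels, and both wild type libraries numbered 2 were far above the others. Its log2 fold change was -1.27 (SE 0.69, edgeR adjusted p = 0.939) at fortified and -1.59 (SE 0.70, edgeR adjusted p = 0.625) at moderate folic acid. Estimated counts that were not whole (beyond 0.0005) are not particular to the Ly6 genes and occurred for S100a6 in 12 of the 12 libraries. They occurred for Ly6a in 5 and for Ly6c1 in 6 of the 12 libraries, so part of their reads was divided between genes or gene models. In moderate mutant 3, for example, 74.52 counts of Ly6a and 27.48 of Ly6c1 added up to 102. Ly6c2, a near copy of Ly6c1, had 0 to 1.06 counts per library, and Ly6a made up 67.2 to 83.1% of the sum of all 3.

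Crip1 had 28.9, 18.6 and 15.7 CPM in fortified mutant libraries, against 35.0, 47.7 and 31.2 CPM in fortified wild type libraries. In moderate cells it had 3.85, 3.85 and 4.35 CPM in mutant libraries, against 5.67, 11.7 and 4.63 CPM in wild type libraries. It was the gene whose mutant libraries lay below the wild type libraries at both folic acid levels. The log2 fold change between genotypes was -0.85 (SE 0.34, edgeR adjusted p = 0.939) at fortified and -0.87 (SE 0.34, edgeR adjusted p = 0.615) at moderate folic acid, so the difference did not pass the test.

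The remaining S100 genes differed less between genotypes than S100a4, which was chosen for this difference. S100a6, or calcyclin, which binds annexins and the calcyclin-binding protein, had 342, 454 and 260 CPM in fortified mutant libraries, against 597, 1094 and 357 CPM in fortified wild type libraries. In moderate cells it had 230, 212 and 357 CPM in mutant libraries, against 197, 854 and 427 CPM in wild type libraries. Both pairs of groups overlapped, with the wild type libraries numbered 2 highest, and the log2 fold changes were -0.96 (SE 0.50, edgeR adjusted p = 0.939) and -0.89 (SE 0.50, edgeR adjusted p = 0.692) at fortified and moderate folic acid. S100a10, S100a11 and S100a13 had log2 fold changes of -0.13, -0.35 and -0.26 at fortified folic acid and of -0.83, -0.75 and -0.71 at moderate folic acid. At moderate folic acid the mutant libraries of S100a10 and S100a13 were all below the wild type libraries, and those of S100a11 were not. Crip2 was near 0 at both levels (-0.23 and -0.10).

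Averaged over both folic acid levels, the fitted log2 fold change was -2.76 (SE 0.65) for S100a4 and -1.99 (SE 0.47) for Ly6a. It was -1.43 (SE 0.49) for Ly6c1, -0.92 (SE 0.35) for S100a6, -0.86 (SE 0.24) for Crip1 and between -0.55 and -0.17 for the other 4 genes. None of the 9 passed by edgeR (0% of all genes called, lowest adjusted p = 0.986 in the table), and 7 of the 9 were lower at an unadjusted p under 0.05, beside 3.09% of all genes. DESeq2 called 18 genes of the table. S100a4 and Ly6a are counted among the 7 and among the 18, and since they were chosen on this contrast, nothing is read from their part in either count. All 9 had a negative log2 fold change, S100a4 and Ly6a again among them, beside 55.3% of all genes. When all mutant libraries were set against all wild type libraries, 0 of the 9 genes separated the genotypes without overlap (0.0988% of all genes).

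**Figure D2:**
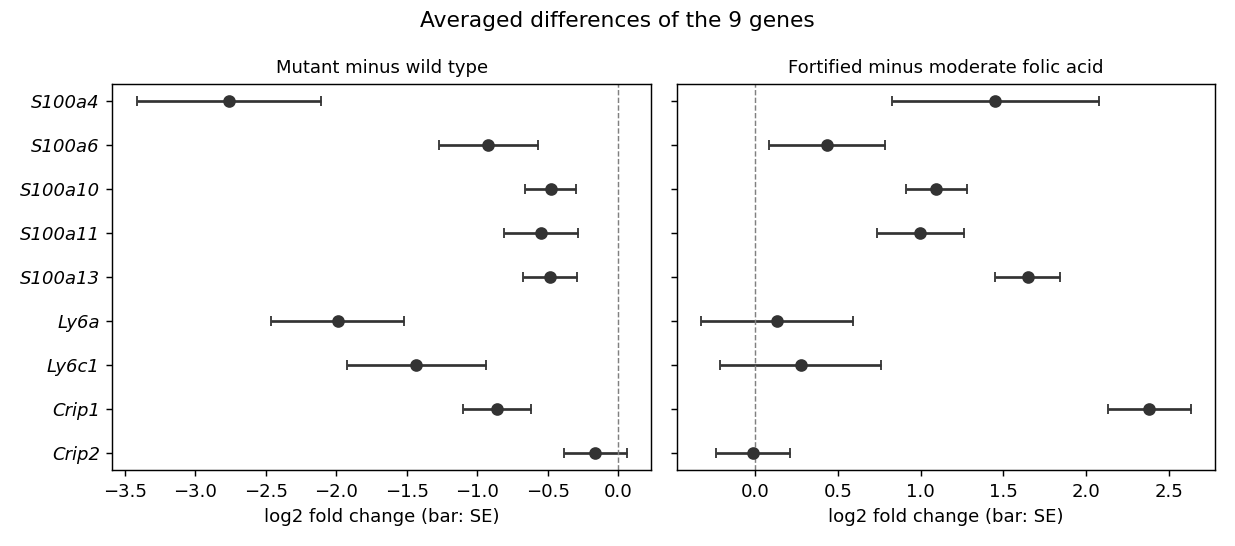
Log2 fold changes of the 9 genes, mutant minus wild type averaged over folic acid levels (left) and fortified minus moderate folic acid averaged over genotypes (right), with bars for the SE. On the left S100a4 lies at -2.76 and Ly6a at -1.99; on the right Crip1 lies at 2.38 and S100a13 at 1.65, while Crip2 lies near 0 in both.

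The size of the genotype differences depended in part on a pair of libraries. A wild type library numbered 2 was the highest of all 12 for 8 of the 9 genes, fortified wild type 2 for 5 of them and moderate wild type 2 for 3. Without both, an alternative chosen after these values were seen, the averaged log2 fold change was -1.76 for S100a4, -1.02 for Ly6a, -0.41 for Ly6c1, -0.32 for S100a6 and -0.49 for Crip1. The median of the 9 genes was then -0.33. Without fortified wild type 2 alone the difference at fortified folic acid was -1.67 for S100a4 and -1.01 for Ly6a, and without moderate wild type 2 alone that at moderate folic acid was -1.89 for S100a4, -1.06 for Ly6a and -0.23 for Ly6c1. With the level of Xist as a covariate the averaged value was -1.87 for S100a4, -1.42 for Ly6a, -0.72 for Ly6c1, -0.26 for S100a6, -0.62 for Crip1 and 0.26 for Crip2, and S100a6 at moderate folic acid was -0.11. When fortified mutant 2, fortified mutant 3 and moderate wild type 1 were left out the averaged value was -3.50 for S100a4. That fit keeps fortified mutant 1 as the only library of its group, so its values for fortified mutant cells rest on that library alone.

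Blood and macrophage markers followed S100a4 only in part. Their summed level was 90.0, 49.9 and 61.7 TPM in fortified mutant libraries, against 284, 172 and 96.1 TPM in fortified wild type libraries. At moderate folic acid it was 86.1, 263 and 49.6 TPM in mutant libraries, against 53.5, 353 and 362 TPM in wild type libraries. All 10 markers had a negative log2 fold change between genotypes at both folic acid levels, with 0 passing by edgeR and none at 0 in any library. The 4 wild type libraries with the highest S100a4 all had at least 172 TPM of these markers, but moderate mutant 2, with 263 TPM, had 6.71 CPM of S100a4. Among those 4 the order was opposite. Fortified wild type 2 had 305 CPM of S100a4 beside 172 TPM, and moderate wild type 3 had 44.2 CPM beside 362 TPM. Their part in the S100a4 difference was not tested.

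Interferon response genes followed Ly6a only in part. Their summed level was 923, 719 and 600 TPM in fortified mutant libraries, against 981, 1161 and 880 TPM in fortified wild type libraries. At moderate folic acid it was 675, 628 and 633 TPM in mutant libraries, against 693, 1146 and 707 TPM in wild type libraries. Fortified wild type 2 and moderate wild type 2 were the highest both for this sum and for Ly6a. Fortified mutant 1, however, had 923 TPM beside 3.21 CPM of Ly6a, and moderate wild type 1 had 693 TPM beside 5.00 CPM. Of the 26 tested genes of the list, 25 had a negative log2 fold change at each level (median -0.43 at fortified and -0.78 at moderate folic acid), and 0 passed by edgeR. Their part in the Ly6a difference was not tested.

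Markers of other cell types were read in the same groups, and 0 of them passed between genotypes. At fortified folic acid 16 of 16 skeletal muscle markers and 12 of 12 neuron markers had positive log2 fold changes, mutant over wild type (medians 1.20 and 1.15), with 0 passing by edgeR. At moderate folic acid 12 of the 16 muscle markers were positive and 11 of the 12 neuron markers negative (medians 0.16 and -0.50), with 0 passing. Fortified wild type 2, the library with the highest S100a4, had the lowest summed muscle markers of all, 980 TPM, against 1865 to 7568 TPM in fortified mutant libraries. The 9 endothelial markers summed to 28.2 to 47.5 TPM in fortified mutant and 26.6 to 33.7 TPM in fortified wild type libraries, and to 21.4 to 37.8 TPM in moderate mutant and 20.1 to 38.6 TPM in moderate wild type libraries. Among them Egfl7, Emcn, Kdr and Tek had means of 11.46, 10.9, 6.70 and 2.39 TPM and were above 0 in every library, while Pecam1 and Cdh5 had means of 0.19 and 0.20 TPM, Cldn5 was at 0 in 7 libraries and Tie1 in 2. The part of these cell types in the results was not tested.

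**Figure D3:**
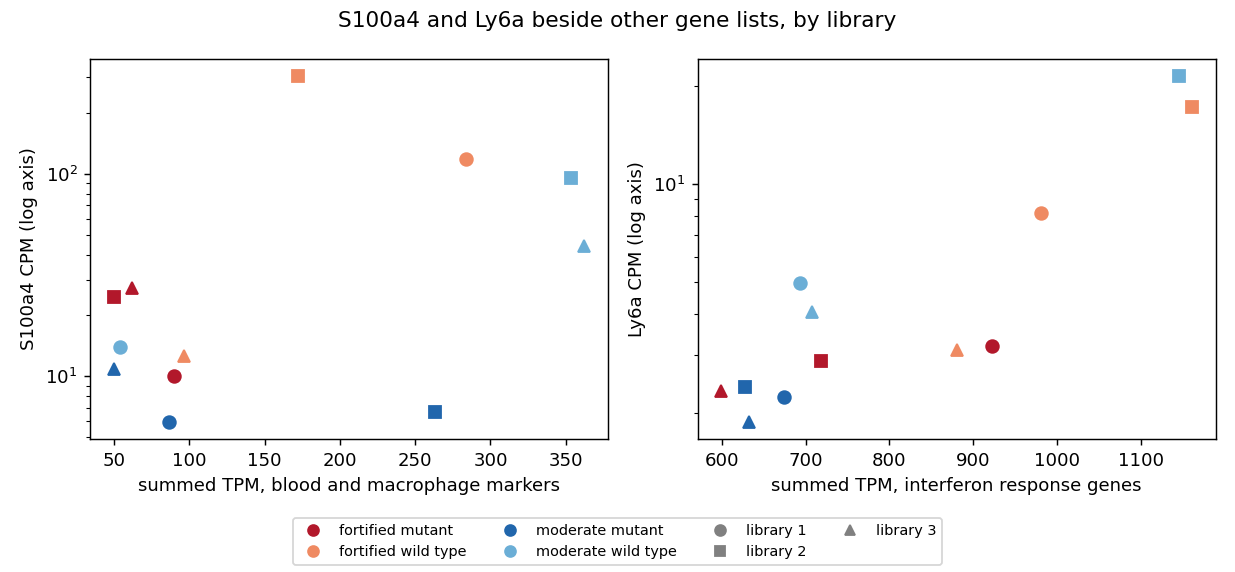
S100a4 (left, CPM, log axis) against summed TPM of 10 blood and macrophage markers, and Ly6a (right, CPM, log axis) against summed TPM of the interferon response genes, 1 point per library. Moderate mutant 2 stands apart on the left with 263 TPM and 6.71 CPM of S100a4; on the right fortified wild type 2 and moderate wild type 2 are highest on both axes.

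The second question was how the genes differed between folic acid levels. S100a10, S100a11 and S100a13 rose in fortified cells on average over genotypes, in addition to Crip1, whose difference had served to choose it. Of the 9 genes 4 were called higher and 0 lower by edgeR, beside 17.8% of all genes called and 8.90% called higher; nothing is read from the call of Crip1. The calls over the whole table divided into 1351 higher and 1345 lower, against 988 and 1896 by library totals alone and 587 and 3154 on log2(TPM + 1), where the median of all genes lay at -0.15. The median log2 fold change of the 9 genes was 1.00, beside 0.00 over all genes, and 8 of the 9 were positive, beside 50.0% of all genes. At an unadjusted p under 0.05, 5 of the 9 were higher, Crip1 again among them, beside 17.5% of all genes. Every fortified library was above every moderate library, across genotypes, for 3 of the 9 genes (Crip1, S100a10 and S100a13), beside 2.77% of all genes with such a separation in this direction. Crip1 is counted in this, in the median and among the positive genes, and nothing is read from its part.

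The folic acid difference of Crip1 was the largest of the 9. Its libraries, given above, ran from 15.7 to 47.7 CPM at fortified and from 3.85 to 11.7 CPM at moderate folic acid, without overlap. Group means were 21.1 ± 6.95 CPM in fortified mutant against 4.02 ± 0.291 CPM in moderate mutant cells, and 38.0 ± 8.64 CPM in fortified wild type against 7.34 ± 3.83 CPM in moderate wild type cells (SD, n = 3 each). The log2 fold change was 2.39 (SE 0.36) in mutant and 2.37 (SE 0.35) in wild type cells. Crip2, its neighbour on chromosome 12, had 36.1, 67.0 and 41.1 CPM in fortified mutant against 50.9, 46.7 and 54.2 CPM in moderate mutant libraries. In wild type libraries it had 44.4, 76.0 and 48.4 CPM at fortified against 37.3, 80.8 and 44.9 CPM at moderate folic acid. Its groups overlapped in both genotypes, and its averaged log2 fold change was -0.01 (SE 0.22, edgeR adjusted p = 0.978).

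S100a13, which takes part in the release of fibroblast growth factor 1 and interleukin-1α from cells, had 14.5, 11.8 and 9.38 CPM in fortified mutant against 3.60, 2.77 and 3.38 CPM in moderate mutant libraries. In wild type libraries it had 11.1, 15.3 and 16.4 CPM at fortified against 4.89, 6.99 and 4.11 CPM at moderate folic acid. No fortified library overlapped with a moderate one. The log2 fold change was 1.87 (SE 0.28, edgeR adjusted p = 0.00977) in mutant cells, 1.42 (SE 0.27, edgeR adjusted p = 0.0539) in wild type cells and 1.65 (SE 0.19, edgeR adjusted p = 0.00192) on average. The averaged difference passed under all 24 alternatives run, with log2 fold changes from 1.35 to 1.77.

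S100a10, or p11, the partner of annexin A2 in a complex that binds plasminogen at the cell surface, had 197, 354 and 273 CPM in fortified mutant against 97.9, 76.2 and 130 CPM in moderate mutant libraries. In wild type libraries it had 272, 391 and 241 CPM at fortified against 183, 192 and 163 CPM at moderate folic acid. The levels did not overlap in either genotype. Its log2 fold change was 1.44 (SE 0.26, edgeR adjusted p = 0.0167) in mutant cells, 0.75 (SE 0.26, edgeR adjusted p = 0.153) in wild type cells and 1.09 (SE 0.18, edgeR adjusted p = 0.00624) on average. The averaged difference also passed under all 24 alternatives. Anxa2 itself did not pass, with an averaged log2 fold change of 0.55 (SE 0.23, edgeR adjusted p = 0.119).

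S100a11, which binds annexin A1 and takes part in membrane repair, had 313, 499 and 331 CPM in fortified mutant against 190, 134 and 175 CPM in moderate mutant libraries. In wild type libraries it had 445, 658 and 354 CPM at fortified against 342, 370 and 125 CPM at moderate folic acid. The levels did not overlap in mutant cells, whereas in wild type cells moderate wild type 2 lay above fortified wild type 3. The log2 fold change was 1.20 (SE 0.37, edgeR adjusted p = 0.0718) in mutant cells, 0.80 (SE 0.37, edgeR adjusted p = 0.259) in wild type cells and 1.00 (SE 0.26, edgeR adjusted p = 0.0253) on average. The averaged call held under 14 of 24 alternatives, with adjusted p from 0.00301 to 0.152, and ended in 10. These were the fits without moderate mutant 2, moderate mutant 3, fortified mutant 2 or fortified wild type 2, without both wild type libraries numbered 2, without the 3 libraries apart on the first principal component, on both log2(TPM) scales, and with the length trend or the length and GC trends removed.

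S100a4 had an averaged log2 fold change of 1.45 (SE 0.63, edgeR adjusted p = 0.126) between folic acid levels and did not pass, except without fortified wild type 3, where the adjusted p was 0.0446. S100a6 had one of 0.43 (SE 0.35, edgeR adjusted p = 0.415), Ly6c1 one of 0.28 (SE 0.49, edgeR adjusted p = 0.729) and Ly6a one of 0.14 (SE 0.46, edgeR adjusted p = 0.866). For these 4 genes fortified and moderate libraries overlapped in both genotypes.

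By genotype, 3 of the 9 genes passed in mutant cells (S100a10, S100a13 and Crip1), beside 6.93% of all genes called and 4.19% called higher, and 0 in wild type cells, beside 0.0263% of all genes, each of them called higher; Crip1, chosen on the folic acid difference, is counted here and in the counts that follow, and nothing is read from its part. At an unadjusted p under 0.05 4 of the 9 were higher in mutant cells, beside 13.5% of all genes, and 3 in wild type cells, beside 9.67%; DESeq2 called 4 in mutant and 2 in wild type cells. The log2 fold change was positive for 8 of the 9 in each genotype, beside 53.0% of all genes in mutant and 46.8% in wild type cells. Fortified libraries were above moderate ones without overlap for 4 genes in mutant cells (19.6% of all genes) and for 3 in wild type cells (11.0%). The 1053 calls in mutant cells divided into 637 higher and 416 lower, against 543 and 641 by library totals alone and 306 and 2508 on log2(TPM + 1). The call in mutant cells rested on all moderate mutant libraries: without moderate mutant 1 or 2, 0 genes of the table passed, and without moderate mutant 3, 30 did, with 0 of the 9 among them. Without fortified mutant 2 S100a10 no longer passed in mutant cells (edgeR adjusted p = 0.0777). Without the 3 libraries apart on the first principal component, fortified mutant 1 is alone in its group, and the log2 fold change of S100a10 was 0.93. In wild type cells 2 of the 9 were called without moderate wild type 1, moderate wild type 2 or fortified mutant 1. The interaction of genotype and folic acid, which tests whether the folic acid difference was unequal between genotypes, passed for 0 of the 9 genes and for 0% of all genes by edgeR. At an unadjusted p under 0.05 it held for 0 of the 9 and for 6.68% of all genes, and DESeq2 called 8 genes, none of the 9.

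All 9 genes have short transcripts, with mean lengths from 417 to 889 bases, and for each of them at most 9.25% of the tested genes were shorter. Short genes as a whole had higher levels at fortified folic acid: the averaged median log2 fold change was 0.20 among the 2923 shortest genes and -0.15 among the 2924 longest. With each library's trend on length removed, an alternative added with earlier results known, S100a10 (0.78, edgeR adjusted p = 0.0241) and S100a13 (1.36, edgeR adjusted p = 0.0047) still passed, Crip1 had a log2 fold change of 2.16, and S100a11 (0.63, edgeR adjusted p = 0.152) did not pass. The median of the 9 genes was then 0.63. In mutant cells S100a10 no longer passed (0.95, edgeR adjusted p = 0.0845). Between genotypes at moderate folic acid the median log2 fold change was -0.22 among the 2923 shortest genes and 0.08 among the 2924 longest. With length and GC trends removed, that genotype difference was -0.51 for S100a10, -0.43 for S100a11 and -2.01 for Ly6a, instead of -0.83, -0.75 and -2.23.

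Fibroblast markers also differed between folic acid levels on average over genotypes. Of 12 markers 6 passed as higher at fortified folic acid on average, beside 8.90% of all genes, and 0 as lower, among them the collagens Col1a1 (1.26, edgeR adjusted p = 0.0116) and Col3a1 (0.78, edgeR adjusted p = 0.0211) and periostin (Postn, 1.17, edgeR adjusted p = 0.015). Their summed level was 7591 to 10432 TPM in fortified mutant against 9118 to 9616 TPM in moderate mutant libraries, and 12548 to 17950 TPM in fortified wild type against 5783 to 10250 TPM in moderate wild type libraries. Fortified mutant 2 and 3, with 7591 and 8240 TPM, thus lay below every moderate mutant library. By log2 fold change 11 of the 12 markers were positive in each genotype, with medians of 0.49 in mutant and 1.44 in wild type cells. In mutant cells 11 of 12 neuron markers had a positive log2 fold change between folic acid levels (median 0.82), whereas in wild type cells 11 of 12 neuron and 15 of 16 muscle markers had a negative one (medians -0.87 and -0.75). On average 10 of 10 blood and macrophage markers were negative (median -0.41). Of these lists 1 gene passed, the neuron marker Map2, which fell by 0.81 on average (edgeR adjusted p = 0.00859). Of 7 tested endothelial markers 1 was called lower by edgeR on average and 5 were negative (median -0.36), beside 17.8% of all genes called. Among 26 interferon response genes 1 was called lower by edgeR, while 18 were positive (median 0.22). The part of these cell types in the S100 and Crip1 values was not tested.

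**Figure D4:**
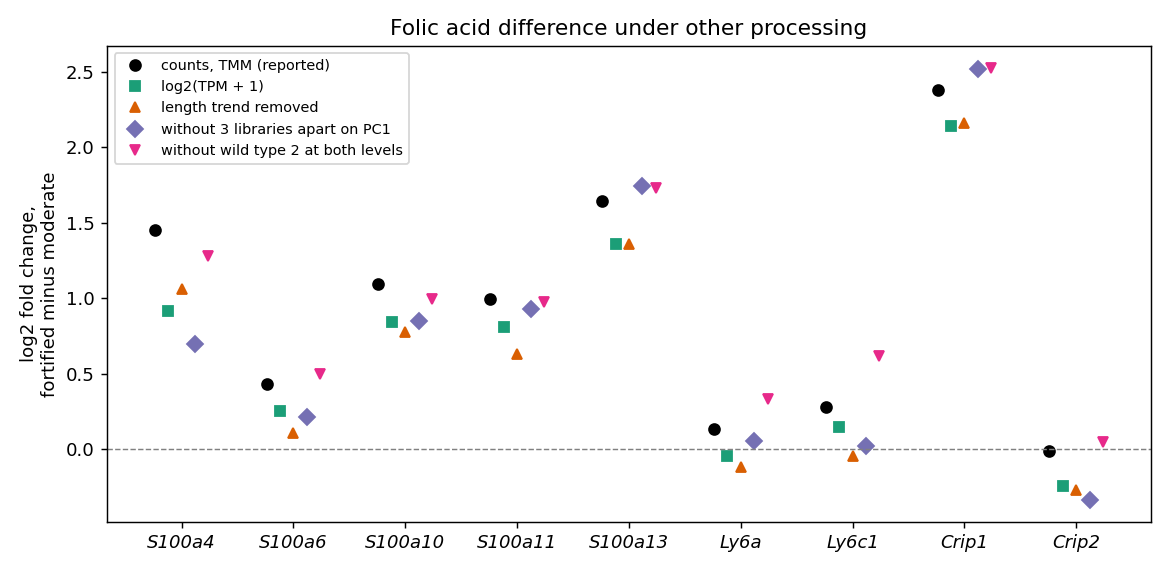
Log2 fold change of the 9 genes, fortified minus moderate folic acid averaged over genotypes, as reported and under 4 other settings. Crip1, S100a13, S100a10 and S100a11 stay above 0 in all 5, while Ly6a and Ly6c1 lie on either side of 0.

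Other genes of the same families were read from lists of relatives and partners, and each count of genes that rose stands beside the 8.90% of all genes called higher in this contrast. Of 13 other S100 family genes 6 were tested, and 2 rose at fortified folic acid on average, S100a1 (1.52, SE 0.40, edgeR adjusted p = 0.0247) and S100a16 (1.53, SE 0.36, edgeR adjusted p = 0.017). S100a1, on the minus strand, starts 42 bases before S100a13, on the plus strand, and the genes point away from each other; the printed sequence is the stretch between them. The other 4 did not pass, and the median of the 6 was 0.07. Of 9 tested Ly6 and uPAR domain genes, 1 rose, Ly6e (0.50, SE 0.16, edgeR adjusted p = 0.0494), and of 3 tested LIM genes related to the CRIP family, 1 rose, Csrp2 (1.40, SE 0.26, edgeR adjusted p = 0.00787). Csrp2 also passed in mutant cells (1.64, edgeR adjusted p = 0.0323). Among 12 tested partners and receptors of S100 proteins, 1 rose, the growth factor Fgf1 (1.41, SE 0.37, edgeR adjusted p = 0.0255), at a mean level of 0.56 TPM. For the Ly6 list and the partners, 1 gene is near the number that this share of all genes would give. No gene of these 4 lists passed between genotypes.

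**Figure D5:**
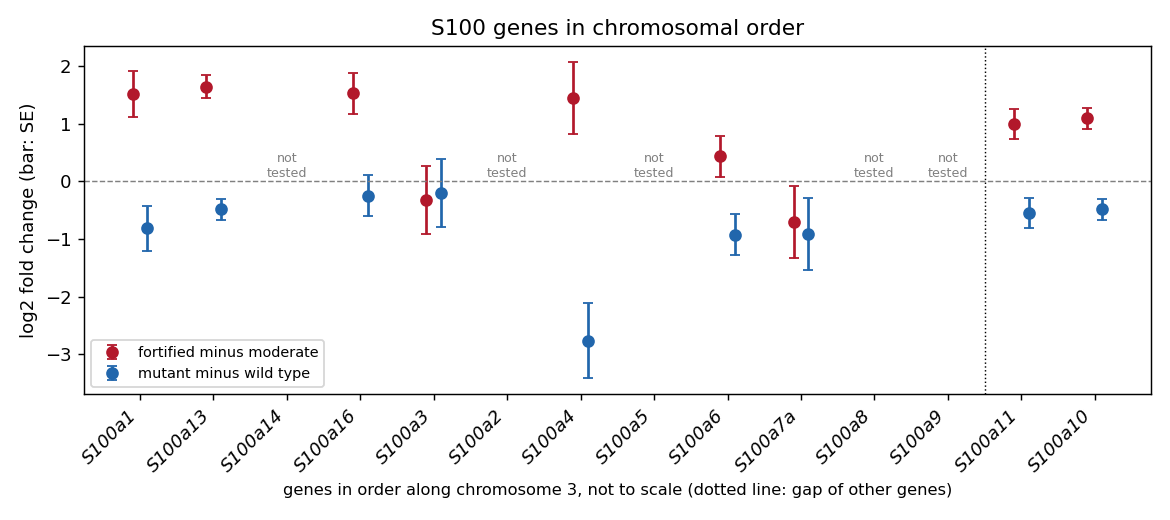
Log2 fold changes of the S100 genes in their order along chromosome 3 (not to scale), fortified minus moderate folic acid averaged over genotypes and mutant minus wild type averaged over folic acid levels, with bars for the SE. S100a1, S100a13 and S100a16 lie between 1.52 and 1.65 for folic acid, and S100a4, which was chosen for its genotype difference, lies at -2.76 for genotype.

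Markers of fibroblast progenitors, a population that Ly6a is known to mark, were read in the same way. Of 16 tested genes 2 rose at fortified folic acid on average, Thy1 (1.06, SE 0.32, edgeR adjusted p = 0.0403) and Col15a1 (1.54, SE 0.42, edgeR adjusted p = 0.0293). Dpp4, a surface peptidase of adventitial fibroblasts, fell by 1.71 (SE 0.46, edgeR adjusted p = 0.0279), and the other 13 did not pass; over all genes 8.90% were called higher and 17.8% in either direction, which is close to the share called here. Between genotypes 0 of the 16 passed, with a median log2 fold change of -0.64 at fortified and -0.11 at moderate folic acid.

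As a description over the 12 libraries, the genes whose log2 CPM was most like that of S100a4 among 10588 genes were Nmt1 (Pearson r = 0.941), Cyb5b (0.925), Nptn (0.910), Ccl7 (0.893) and Nadk (0.892). Among genes with a mean of at least 5 CPM, those most like Ly6a were Ccnd1 (0.943), Slc35b4 (0.896), Ripk3 (0.890), Lrrc27 (0.887) and Sptlc2 (0.882). The genes most like Crip1 were Calm3 (0.975), Arf4 (0.973), Cdc42ep5 (0.973), S100a13 (0.971) and Arcn1 (0.965). Among the 9 genes, S100a4 had r = 0.886 with S100a6 and 0.851 with Ly6a, Ly6a had r = 0.951 with Ly6c1, which is below 5 CPM and above all the genes just named for Ly6a, and Crip1 had r = 0.180 with Crip2. The libraries share groups, depth and cell makeup, so these values carry no test.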

How the data were processed

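Polyadenylated RNA of 12 libraries, 3 in each of 4 groups, had been extracted with trizol and chloroform and made into libraries with a Tecan kit, per the labels' protocols. The authors deposited expected counts and TPM per gene as merged salmon tables, per the file names; the genome is mm10, per the submitters' processing notes, while the versions and annotation behind them were not given in the sources used here. The deposited TPM values are scaled to transcript length and to a sum of 1000000 per library. The letters B and P in the column names are unexplained, and each column's group rests on its number in the submitters' descriptions. No sample column was left unused (0).

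Here the expected counts, after rounding to whole numbers, were filtered with filterByExpr (minimum count 10, minimum total 15), which kept 15186 genes. Scaling was by TMM, and CPM use the scaled totals, per 1000000. A mean per group was fitted to the 12 libraries together in edgeR 4.0.16 (glmQLFit, glmQLFTest; R 4.3.3), with Benjamini-Hochberg adjustment over all tested genes and a threshold of 0.05. Each SE belongs to a log2 fold change of that fit. Depth was 39339131 to 48475920 counts, and replicate spread exceeded counting error by far (common biological coefficient of variation 0.332). The procedure was tested on simulated data. Likeness is Pearson's r of log2 CPM (prior count 2) over genes with a mean of at least 5 CPM.

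The 9 members, the gene lists and the added alternatives were chosen with earlier results of these data known. Named genes were the 9, the 5 genes most like S100a4, Ly6a and Crip1, the list genes with the highest TPM or an adjusted p under 0.05, Anxa2, Ly6c2, Rsg1 and Xist; markers named for cell types were taken from the marker lists after their values were seen. The alternatives were DESeq2 1.42.0, limma 3.58.1 on log2(TPM + 1) and log2(TPM + 0.1), other scalings, no filter, a block by replicate number, Xist as covariate, fits on the compared groups alone, leaving out each library, and 4 added ones. For length and GC a natural spline (5 degrees of freedom) was subtracted per library, over 14616 genes (96.2%). Gene positions are from GENCODE M21 and promoters from RefSeq.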

Additional observations from a re-analysis of the deposited data

How the results depend on the processing

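Across 54 log2 fold changes of the 9 genes (6 contrasts), leaving out 1 library kept the direction and side of the threshold in 600 cases, with 26 reversed, 8 newly passing and 14 no longer passing. The other settings chosen with the design gave 443, 12, 11 and 2, and those added after seeing the data 182, 23, 4 and 7. The cause of these changes was not tested.

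Between genotypes Crip2 changed sign at moderate folic acid with log2(TPM + 1) and log2(TPM + 0.1) (0.15 in both), a replicate block (0.0068), Xist as covariate (0.35), without both wild type libraries numbered 2 (0.33) and with the length trend removed (0.087). At fortified folic acid it did so with Xist (0.17) and without both libraries numbered 2 (0.047), and on average with the same pair of settings (0.26 and 0.19). S100a10 at fortified folic acid was 0.096 without both libraries numbered 2. S100a13 there was 0.0098 without fortified mutant 2, fortified mutant 3 and moderate wild type 1, a fit that keeps fortified mutant 1 alone in its group.

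Between folic acid levels in mutant cells, removing the length trend, and then length and GC, gave S100a6 -0.12 and -0.0998 and Ly6c1 -0.038 and -0.040; Ly6a was -0.0035 with both removed. In wild type cells Crip2 was -0.042 by library totals, -0.029 by both TPM scales, -0.16 without the 3 libraries apart, -0.0898 with length removed and -0.16 with length and GC removed. There Ly6a was 0.0094 with Xist and 0.32 without both libraries numbered 2, and Ly6c1 was -0.27 without the 3 libraries apart, -0.049 with length and -0.031 with length and GC removed. On average Ly6a was -0.043 by both TPM scales, -0.12 with length and -0.11 with length and GC removed, Ly6c1 -0.044 and -0.035 under those removals, and Crip2 0.045 without both libraries numbered 2.

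Leaving out 1 library gave Crip2 -0.31 to 0.30 at moderate folic acid, -0.56 to 0.047 at fortified and -0.32 to 0.036 on average between genotypes, and S100a10 -0.37 to 0.096 at fortified. Between folic acid levels Crip2 spanned -0.42 to 0.094 in mutant cells, -0.23 to 0.45 in wild type cells and -0.18 to 0.19 on average. In wild type cells S100a6 spanned -0.048 to 1.13, Ly6a -0.86 to 1.07 and Ly6c1 -0.55 to 1.48, and on average Ly6a -0.26 to 0.72 and Ly6c1 -0.067 to 0.96.

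In wild type cells 0 of the 9 were called between folic acid levels, but 2 with DESeq2, no filter and without the 3 libraries apart, and 1 with log2(TPM + 0.1), a replicate block, Xist, and either removal of trends. Between genotypes on average DESeq2 called 2 (0 by edgeR), S100a4 and Ly6a, which were chosen on this contrast, so nothing is read from it. Leaving out 1 library gave 0 to 4 members in mutant cells, 0 to 2 in wild type cells and 3 to 5 on average. Replicate numbers did not pair the libraries (18 same-number pairs, r from -0.477 to 0.244, 4 of them over 0.1); with the replicate block 3 members passed in mutant cells and 4 on average, and the table held 559 and 2309 calls.

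Calls over the whole table in mutant cells, 1053, became 2414 with DESeq2, 2814 and 2805 with the TPM scales, 2122 with the compared groups alone, 221 with length and 352 with length and GC removed, and 0 to 2073 without 1 library. In wild type cells the 4 calls became 1197 with DESeq2, 80 without the filter, 1298 without the 3 libraries apart, 65 with the block, 15 with Xist, 24 with length and 78 with length and GC removed, 13 and 1 with the TPM scales (pseudocounts 0.1 and 1), 2 by library totals, 0 with the compared groups alone or without both libraries numbered 2, and 1 to 1012 without 1 library. On average 2696 calls became 1434 without both libraries numbered 2 and 1411 to 4025 without 1 library. The median of all genes on log2(TPM + 1) was -0.23 in mutant cells, -0.09 in wild type cells and -0.15 on average.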
